A study of Mus musculus with 48 samples.

Results

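JQ1 was given to mice carrying the phospholamban mutation PLNR9C, and the RNA of their cardiomyocytes was compared with that of vehicle-treated PLNR9C mice. The libraries were chosen by their titles: 3 labelled PLNR9C-JQ1 cardiomyocytes and 3 labelled PLNR9C-vehicle cardiomyocytes, 6 of the 48 libraries of the series. Every gene with enough reads in them was examined. The mice were of strain FVB, JQ1 was given at 50 mg/kg, and pooled cardiomyocytes were taken at 16 weeks of age, at a stage labelled DCM. The mutation was common to both groups. The sources used here do not state the number of animals in a pool, the length of treatment, how the cells were isolated or how the allele was made. The libraries of a group are labelled as biological replicates. P-values for cardiomyocytes rest on the spread between such pools, estimated over PLNR9C and wild type libraries together. Wild type cardiomyocytes and PLNR9C non-myocytes of 16 weeks, and PLNR9C left ventricles of 8 and 20 weeks, each with 3 JQ1 and 3 vehicle libraries, served for comparison.

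Phospholamban restrains SERCA2a, the calcium pump of the sarcoplasmic reticulum, and its PLNR9C mutation causes dilated cardiomyopathy. BET proteins, BRD2 and BRD3 among them, bind acetylated histones at promoters and enhancers and help paused RNA polymerase II into elongation by way of P-TEFb, the kinase complex of CDK9 and a cyclin T. JQ1 occupies the acetyl-lysine pocket of their bromodomains and displaces them from chromatin. The comparison asks which transcripts of the diseased cardiomyocyte change when these proteins are inhibited.

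The cardiomyocyte label was checked first. Summed over 12 cardiomyocyte markers, among them Myh6, Tnnt2 and Actc1, the level was 86033, 53477 and 76109 CPM (the read count scaled by library size) in JQ1 replicates 1, 2 and 3, and 63395, 69061 and 74131 CPM in the vehicle replicates. PLNR9C vehicle non-myocytes had 2098 to 2790 CPM on library sizes without TMM scaling, far below all 6 cardiomyocyte libraries. Myh6, the adult myosin heavy chain, stood at 29544, 17757 and 27045 CPM with JQ1 and at 19916, 20131 and 20251 CPM with vehicle, and did not pass the test (log2 fold change ± SE 0.30 ± 0.18, adjusted p = 0.30). Pln, the gene of phospholamban, stood at 1848, 1333 and 1704 CPM with JQ1 and at 2002, 1937 and 1617 CPM with vehicle (-0.19 ± 0.15, adjusted p = 0.45). JQ1 replicate 2 was the lowest of the 6 libraries for the cardiomyocyte marker sum, for Myh6 and for Pln. Reads in genes numbered 10249780 to 13146653 per library.

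RNA of other heart cells was present in all 6 libraries and was uneven among the JQ1 libraries. The sum over 48 markers of fibroblasts, endothelial cells, mural cells and macrophages was 4147, 10422 and 6528 CPM in JQ1 replicates 1, 2 and 3, against 4277, 3561 and 4272 CPM with vehicle (exact two-sided permutation test, p = 0.3, where 0.1 is the smallest p that 3 against 3 allows). JQ1 replicate 2 was highest, replicate 3 came next, and replicate 1 lay within the vehicle range. PLNR9C vehicle non-myocytes had 45727 to 49916 CPM on the same unscaled sizes, and no marker of these lists was at 0 in all 6 libraries. Fibroblast markers summed to 2149, 6739 and 3956 CPM with JQ1 and to 2415, 1715 and 2249 CPM with vehicle. Epicardial markers summed to 32.5, 133 and 70.2 CPM with JQ1 and to 27.3, 25.2 and 23.2 CPM with vehicle, without overlap. In such pools, more cells of a type and more RNA per cell cannot be told apart. Some results that move with these markers are given below also without JQ1 replicate 2, or with the mean log2 level of the markers as a covariate. Of 100 named genes that passed, 37 passed with the covariate, so a call given without it may not hold under it.

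**Figure D1:**
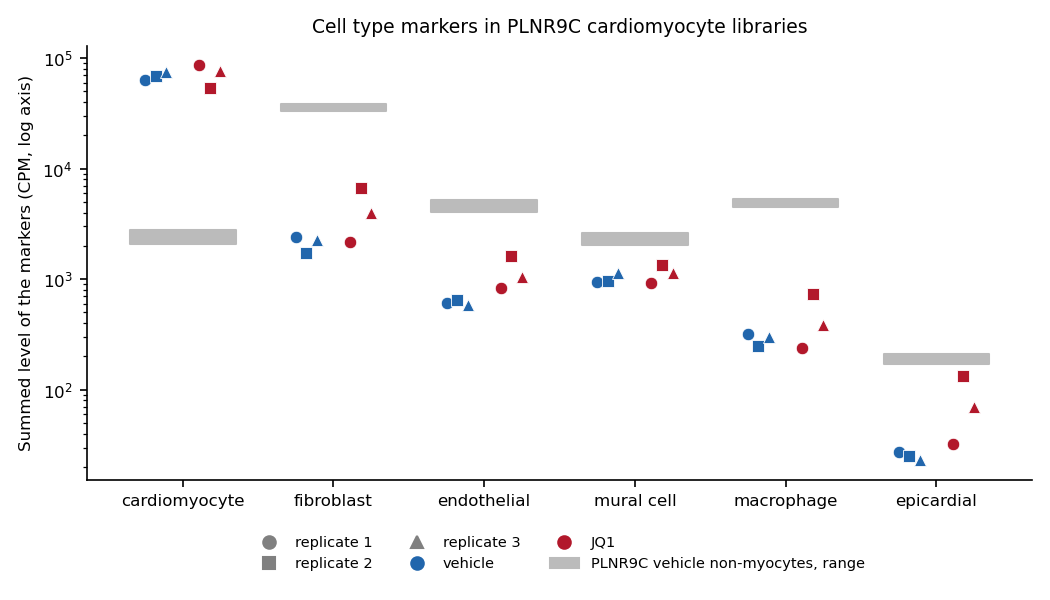
Summed level of the markers of 6 cell types in each PLNR9C cardiomyocyte library (CPM, log axis), with JQ1 in red, vehicle in blue, the replicate as symbol, and the range of PLNR9C vehicle non-myocytes as a grey band. JQ1 replicate 2 (square) has the lowest cardiomyocyte sum, 53477 CPM, and the highest fibroblast sum, 6739 CPM.

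JQ1 changed 1480 of 14142 genes tested (10.5%): 868 rose (6.14%) and 612 fell (4.33%), and the median log2 size of these changes was 0.89. A gene was called when its adjusted p in edgeR's quasi-likelihood test was under 0.05. In 1437 of the 1480 (97.1%) the JQ1 and vehicle libraries did not overlap, against 26.6% of all genes tested. The genes were split by the fraction with the higher level in wild type vehicle libraries. This contrast does not compare those libraries, though the cardiomyocyte ones share its fit. Of 15823 genes 79.5% differed between the fractions, 37.3% with the higher level in cardiomyocytes and 42.2% with the lower. No size of difference was required, so the class does not give a cell of origin: Hexim1, at -0.42, counted as non-myocyte-enriched. Of 5892 myocyte-enriched genes, higher in cardiomyocytes, 84 rose (1.43%) and 368 fell (6.25%), 7.67% in all. Of 5420 non-myocyte-enriched genes 674 rose (12.4%) and 138 fell (2.55%), 15% in all, and of 2810 genes in neither class 110 rose (3.91%) and 106 fell (3.77%), 7.69% in all. Most calls among myocyte-enriched genes were thus falls, and most among non-myocyte-enriched genes were rises.

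These numbers depended on single libraries. Without JQ1 replicate 2, the library with the most non-myocyte RNA, the myocyte-enriched genes gave 68 rises and 118 falls, and the non-myocyte-enriched genes 255 rises and 102 falls. With the marker level as covariate the numbers were 70 and 49, and 109 and 111. The falls of myocyte-enriched genes and the rises of non-myocyte-enriched genes shrank most under both settings. The 84 rises of myocyte-enriched genes became 49 without JQ1 replicate 3, and 43 and 45 without vehicle replicate 1 or 2. The total of 1480 calls became 2513, 643 and 871 without JQ1 replicate 1, 2 or 3, and 821, 676 and 1094 without vehicle replicate 1, 2 or 3. In each of these 6 fits 451 of the 1480 genes were called, 295 that rose and 156 that fell.

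**Figure D2:**
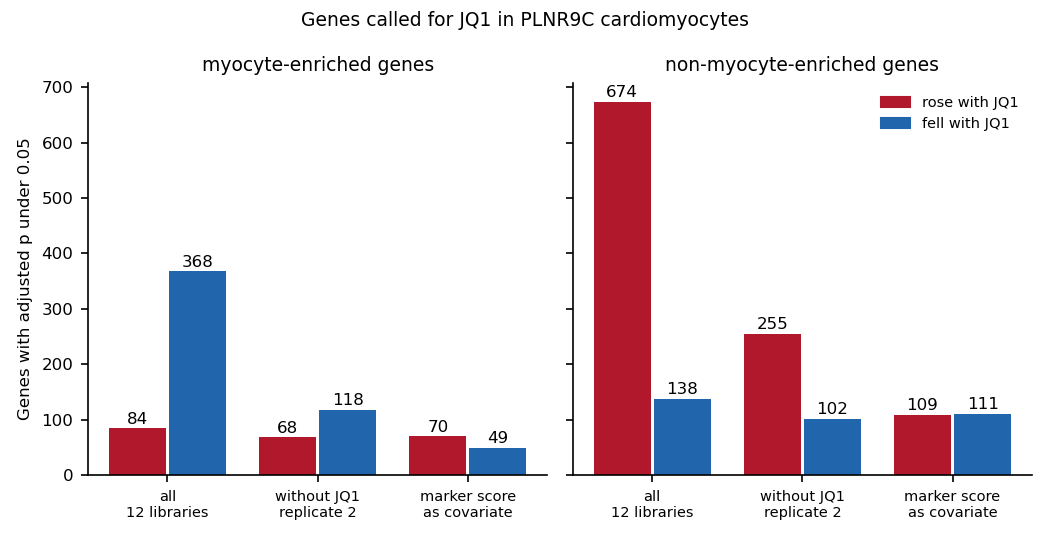
Number of genes called for JQ1 against vehicle in PLNR9C cardiomyocytes, by class of gene and direction, with all 12 cardiomyocyte libraries in the fit, without JQ1 replicate 2, and with the non-myocyte marker level as covariate. Rises of myocyte-enriched genes number 84, 68 and 70 in the 3 fits, and their falls 368, 118 and 49.

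The PLNR9C libraries were more variable than the wild type ones with which they shared the fit (common dispersion 0.0458 in the 6 PLNR9C libraries and 0.0173 in the 6 wild type libraries). The estimate over all 12 libraries was 0.0320, so p-values and errors from that fit can understate the spread of the PLNR9C pools. When the PLNR9C libraries were fitted alone, 22 genes were called, 14 rises and 8 falls, and 2913 of 13807 genes had an unadjusted p under 0.05. The 22 genes were singled out after their values were seen. The 14 that rose included AK017143, BC057022, Bcl2l11, Cnnm4, Efnb2, Glcci1, Hexim1, Jund, Lonrf3, Polr2a, Spef1, Zfp703 and Zswim6, and the 8 that fell were Frmd5, Itgb6, Krba1, Sbno2, Slc25a23, Synj2, Tmem171 and Zmynd8. They include Polr2a, the largest subunit of RNA polymerase II (1.10 ± 0.15 in the fit of 6 libraries), Bcl2l11, the gene of the pro-apoptotic protein BIM (2.05 ± 0.27), and Zmynd8, a reader of histone marks (-1.19 ± 0.14). All 22 had the same direction in wild type cardiomyocytes and in PLNR9C non-myocytes, and 20 passed in each. They also kept it in the PLNR9C ventricle, where 22 passed at 8 weeks and 21 at 20 weeks. Of all genes tested 3.63% passed in wild type cardiomyocytes and 29.2% in PLNR9C non-myocytes. In the ventricle 33.1% passed at 8 weeks and 31.9% at 20 weeks. The values that follow come from the fit of 12 libraries.

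Of 14 BET and P-TEFb genes 3 rose and none fell, with a median log2 fold change of 0.25, against -0.03 over all genes tested. Over all genes 6.14% rose and 4.33% fell. Hexim1 (chromosome 11, 103116325 to 103119724), the inhibitor that holds P-TEFb inactive and a known responder to BET inhibition, stood at 76.9, 94.5 and 73.5 CPM with JQ1 and at 26.2, 26.1 and 21.3 CPM with vehicle. Each JQ1 library lay far above each vehicle library (1.73 ± 0.15, adjusted p = 9.8e-05), and the value was 1.61 to 1.82 when any 1 library was left out. Brd2 (chromosome 17, 34112019 to 34122607), a BET gene itself, stood at 261, 301 and 310.1 CPM with JQ1 and at 154, 155 and 172 CPM with vehicle. Its groups did not overlap either (0.86 ± 0.11, adjusted p = 0.0019). In the PLNR9C libraries fitted alone Brd2 missed the threshold (adjusted p = 0.052), while Hexim1 passed. Brd3 rose by 0.45 ± 0.13 and passed in 2 of the 6 fits that each left out 1 library. Hexim2, a relative of Hexim1 named after its value was seen, was lower with JQ1 without overlap, at 0.515, 0.294 and 0.447 CPM against 1.87, 1.22 and 0.609 CPM, and missed the threshold (-1.55 ± 0.47, adjusted p = 0.054). Without vehicle replicate 3 the list gave 3 rises and 1 fall.

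Among genes not enriched in myocytes, Zswim6, Lonrf3 and Spef1 rose. No overlap of the groups was a condition for naming them, so it is not a separate result. Zswim6, a zinc finger gene (chromosome 13, 107724617 to 107890064), stood at 61.3, 77 and 61.2 CPM with JQ1 and at 13.7, 12.7 and 11.5 CPM with vehicle. Its lowest JQ1 library was far above its highest vehicle library (2.4 ± 0.12, adjusted p = 6.8e-07). Lonrf3, of a family of RING finger proteins, rose by 2.11 ± 0.37, with 10.4, 17.9 and 12.1 CPM against 2.55, 3.16 and 3.65 CPM. The JQ1 libraries of Lonrf3 followed the order of the non-myocyte marker sums, and with the covariate it had 1.78, adjusted p = 0.047. Spef1, a protein of the ciliary axoneme, rose by 2.11 ± 0.22, with 15.5, 18.9 and 13 CPM against 2.89, 4.53 and 3.48 CPM. The 3 genes were called in each of the fits that left out 1 library.

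Histone genes rose or did not pass. Of 16 tested 6 rose and none fell, with a median log2 fold change of 0.62, where 6.14% of all genes rose and 4.33% fell. The numbers were 6 and 0 in each of the 6 leave-one-out fits, and 5 and 0 with the covariate. H3f3b, a gene of the replication-independent histone H3.3, stood at 103, 179 and 153 CPM with JQ1 and at 49.6, 51 and 65.7 CPM with vehicle (1.39 ± 0.17, adjusted p = 0.0018). H3f3a, the other H3.3 gene, rose by 0.72 ± 0.12, and H2afx, the variant phosphorylated at DNA breaks, by 1.28 ± 0.23. Hist1h2bc, an H2B gene, stood at 36, 30.9 and 27.4 CPM with JQ1 and at 18.8, 20.6 and 19 CPM with vehicle (0.69 ± 0.12, adjusted p = 0.0060). None of these 4 genes had overlapping groups. H3f3b, H3f3a, H2afx and Hist1h2bc passed in all 6 leave-one-out fits. Histone genes have near-identical copies, so how the deposited counts divide reads among them is uncertain.

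**Figure D3:**
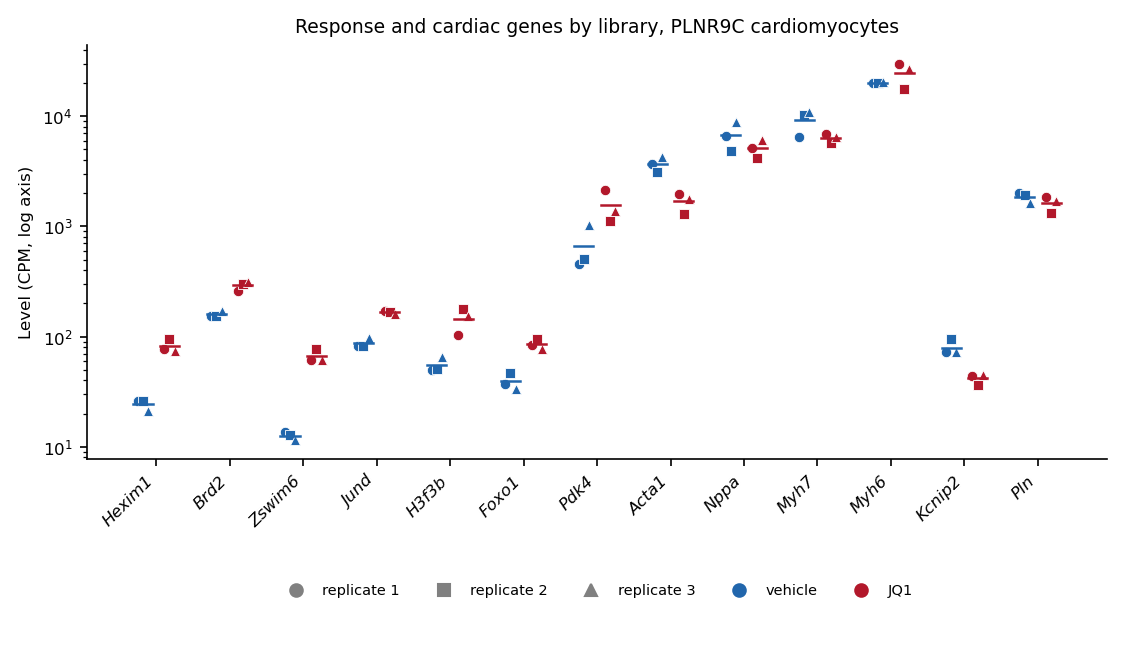
Level of 13 genes in each PLNR9C cardiomyocyte library (CPM, log axis), with vehicle in blue, JQ1 in red, the replicate as symbol and the mean of 3 as a bar. The groups are apart for Hexim1, Brd2, Zswim6, Jund, H3f3b, Foxo1, Pdk4, Acta1 and Kcnip2, and overlap for Nppa, Myh7, Myh6 and Pln.

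The 8 largest rises of myocyte-enriched genes, within the limits of level and overlap set for named genes, included those of Ccdc63, Pdk4, Ephb3, Kansl1l, Foxo3, mt-tRNA-Leu and Mphosph9. Ccdc63, a coiled-coil gene known from sperm flagella (chromosome 5, 122108056 to 122138062), stood at 154, 74.4 and 103 CPM with JQ1 and at 20.6, 44.1 and 32.9 CPM with vehicle (1.76 ± 0.34, adjusted p = 0.011). Ephb3, an ephrin receptor, rose by 1.06 ± 0.30 and passed in 2 of the 6 fits that left out 1 library. Kansl1l, related to a subunit of a histone acetyltransferase complex, rose by 0.94 ± 0.15, and Mphosph9 by 0.88 ± 0.19. The groups of Ccdc63, Ephb3, Kansl1l and Mphosph9 did not overlap, and all but Ephb3 were called in every one of the 6 fits.

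Genes of fuel selection and protein turnover rose in part. Pdk4, the kinase that blocks pyruvate entry into the citric acid cycle (chromosome 6, 5483351 to 5496278), stood at 2153, 1113 and 1371 CPM with JQ1 and at 459.8, 511 and 1032 CPM with vehicle. Vehicle replicate 3 came close to JQ1 replicate 2 without overlap, and the gene passed in 1 of the 6 fits (1.21 ± 0.34, adjusted p = 0.042). Foxo1, a factor that drives atrophy and fasting genes, stood at 83.9, 95.5 and 76.3 CPM with JQ1 and at 36.9, 46.9 and 33.7 CPM with vehicle. Its JQ1 libraries were all above its vehicle libraries and it passed in every such fit (1.12 ± 0.15, adjusted p = 0.0020). Foxo3, its relative, stood at 41.6, 46.5 and 36.7 CPM with JQ1 and at 21.5, 25.6 and 20.3 CPM with vehicle (0.89 ± 0.25, adjusted p = 0.046), and passed in 0 of the 6 fits. Of 19 protein degradation and atrophy genes 4 rose, Foxo1, Foxo3, the autophagy kinase gene Ulk1 (0.45 ± 0.11) and the lysosomal protease gene Ctsl (0.36 ± 0.10). The median of the list was -0.22, and 6.14% of all genes rose. Ulk1 passed in 5 of the 6 fits that left out 1 library and Ctsl in 1. The count was 1 to 3 over the 6 leave-one-out fits and 2 with the covariate, and without JQ1 replicate 1 the list also had 2 falls.

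Of 17 PPAR target and lipid storage genes 6 rose and none fell, at a median of 0.43, where 6.14% of all genes rose. Besides Pdk4 the 6 included Acot1, a thioesterase (1.30 ± 0.32), Scd4, a fatty acid desaturase (2.22 ± 0.56), and Fabp4 and Scd1. Fabp4 is also among the endothelial markers, and with the covariate it did not pass (0.99, adjusted p = 0.21). Cpt1a passed in 4 of the 6 leave-one-out fits, Acot1 in 3 and Scd4 in 1. Acot1, which has close paralogs, stood at 2.58, 1.91 and 3.13 CPM with JQ1 and at 0.764, 0.934 and 1.39 CPM with vehicle, a low level without overlap. The count was 6 without JQ1 replicate 1, 1 without JQ1 replicate 2 or vehicle replicate 1, 0 without JQ1 replicate 3 or vehicle replicate 2, 2 without vehicle replicate 3, and 1 with the covariate. Of 27 fatty acid uptake and oxidation genes Cpt1a, the gate of long-chain fatty acids into mitochondria, alone rose (0.84 ± 0.19, adjusted p = 0.018). It stood at 49.6, 103 and 73.9 CPM with JQ1 and at 41.7, 42.8 and 42.2 CPM with vehicle, and its JQ1 libraries followed the order of the non-myocyte marker sums. With the covariate Cpt1a did not pass (0.36, adjusted p = 0.16).

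Genes of the respiratory chain are encoded in mitochondria and in the nucleus. Of 13 mitochondrially encoded genes 6 rose and none fell, and all 13 had a positive log2 fold change, with a median of 0.45. Among all genes tested 6.14% rose and 4.33% fell. mt-Co1, a subunit of cytochrome c oxidase, stood at 72242, 64505 and 76917 CPM with JQ1 and at 50900.0, 40945 and 47364 CPM with vehicle (0.62 ± 0.18, adjusted p = 0.043). mt-Nd2, a subunit of complex I, stood at 9675, 8307 and 8955 CPM with JQ1 and at 6764, 5992 and 6943 CPM with vehicle (0.45 ± 0.13, adjusted p = 0.043). The JQ1 libraries were higher for both without overlap, and mt-Co1 passed in 2 of the 6 fits that left out 1 library and mt-Nd2 in 2 of the 6. Reads on mitochondrial genes made up 13.5%, 14% and 14.8% of the JQ1 libraries and 11.6%, 9.0% and 9.35% of the vehicle libraries. The list gave 6 rises without JQ1 replicate 1 or 2, 1 without JQ1 replicate 3 or vehicle replicate 2, 2 without vehicle replicate 1 or 3, and 3 with the covariate. Of the 55 oxidative phosphorylation genes of the nucleus and the 19 genes of the tricarboxylic acid cycle none passed, with log2 fold changes from -0.33 (Ndufa1) to 0.13 (Cycs) in the first list. Its median was -0.11, and was 0.05 without JQ1 replicate 2 and 0.18 with the covariate, and 8 of the 55 fell without JQ1 replicate 1. Ppargc1a, a driver of mitochondrial genes, did not pass (0.67 ± 0.36, adjusted p = 0.25).

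Of 19 stress and fetal genes of the cardiomyocyte 1 passed, the skeletal actin gene Acta1, and the median was -0.35. Of all genes tested 10.5% passed. Acta1 (chromosome 8, 123891767 to 123894736), which a failing heart expresses again, stood at 1969, 1301 and 1786 CPM with JQ1 and at 3673, 3136 and 4249 CPM with vehicle. All JQ1 libraries were below all vehicle libraries, and the gene fell in each fit that left out 1 library (-1.13 ± 0.22, adjusted p = 0.0091). With the covariate it did not pass (-1.01, adjusted p = 0.078). Nppa, the atrial natriuretic peptide gene, stood at 5144, 4179 and 6049 CPM with JQ1 and at 6632, 4785 and 8794 CPM with vehicle (-0.39 ± 0.39, adjusted p = 0.55). Nppb, of the brain natriuretic peptide, had -0.34 ± 0.61, adjusted p = 0.77, and Myh7, the fetal myosin heavy chain, had -0.53 ± 0.18, adjusted p = 0.075. JQ1 and vehicle libraries overlapped for these 3 genes. The difference between PLNR9C and wild type vehicle cardiomyocytes, which uses the same PLNR9C vehicle libraries, was 1.82 for Acta1, 6.30 for Nppa, 2.36 for Nppb and 1.74 for Myh7 on the log2 scale.

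No adult sarcomere gene passed among 21 tested, and the highest log2 fold change was that of Tnnt2. Tnnt2, cardiac troponin T, stood at 6281, 3392 and 4545 CPM with JQ1 and at 3577, 3948 and 3941 CPM with vehicle. JQ1 replicate 2 was the lowest of the 6 and JQ1 replicate 1 the highest (0.31 ± 0.18, adjusted p = 0.30), and without replicate 2 the gene passed (0.50, adjusted p = 0.044). Myh6 also passed without replicate 2 (0.49, adjusted p = 0.020). Actc1, cardiac actin, had -0.09 ± 0.18 with all libraries and 0.06 without replicate 2, and passed in neither.

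Membrane genes gave scattered falls. Kcnip2, the subunit of the fast transient outward potassium channel (chromosome 19, 45793670 to 45815803), stood at 43.8, 36.5 and 45.2 CPM with JQ1 and at 72.1, 94.2 and 72.3 CPM with vehicle. Its groups were well apart and it was called in all 6 fits that left out 1 library (-0.93 ± 0.15, adjusted p = 0.0045). Kcnj5, of the acetylcholine-gated potassium current, fell by 0.70 ± 0.19, and Chrm2, the muscarinic receptor upstream of it, fell by 0.70 ± 0.16, the only fall among 19 neurohormonal receptor genes, of which 2 rose, Npr1 among them. Kcnj5 passed in 1 of the 6 fits and Chrm2 in 5 of the 6. The sodium channel beta subunit gene Scn3b fell by 1.30 ± 0.33, in 3 of the 6 fits. With the covariate Kcnip2 passed (adjusted p = 0.032), and Kcnj5, Chrm2 and Scn3b did not. Falls numbered 2 of 16 potassium channel genes and 2 of 16 sodium and calcium channel and gap junction genes, with list medians of -0.15 and -0.11. Of all genes tested 6.14% rose and 4.33% fell.

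Of 20 calcium handling genes 2 rose and 2 fell, at a median of -0.13, where 6.14% of all genes rose and 4.33% fell. Cacnb2, a subunit of the L-type calcium channel, stood at 22, 17.8 and 22.8 CPM with JQ1 and at 52.8, 60.5 and 22.9 CPM with vehicle. Vehicle replicate 3 was almost level with the JQ1 libraries, and the gene passed in 1 of the 6 fits (-1.12 ± 0.30, adjusted p = 0.038). Asph, whose products include junctin, fell by 0.45 ± 0.13. The rises included that of Itpr1, the inositol trisphosphate receptor (0.93 ± 0.21), which stood at 55.5, 107 and 74.4 CPM with JQ1 in the order of the non-myocyte marker sums. Itpr1 passed in 4 of the 6 fits that left out 1 library and Asph in 2. With the covariate no gene of the list passed. Atp2a2, the gene of the pump that phospholamban restrains, stood at 11510.2, 7240.4 and 9804 CPM with JQ1 and at 9641, 10599 and 9380.0 CPM with vehicle, overlapping (-0.05 ± 0.17, adjusted p = 0.88). Over the 6 fits the list gave 0 to 2 rises and 0 to 2 falls.

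Of 20 cardiac transcription factor genes Myocd and Irx4 fell, where 4.33% of all genes fell. Myocd, the coactivator of serum response factor, stood at 24.2, 18.8 and 24.7 CPM with JQ1 and at 33.6, 43.2 and 60.1 CPM with vehicle, without overlap, and passed in 5 of the 6 fits (-1.02 ± 0.23, adjusted p = 0.019). Irx4, a ventricular homeobox gene, had overlapping libraries and passed in 2 of the 6 (-0.87 ± 0.23, adjusted p = 0.029). Both missed the threshold without JQ1 replicate 2, where Myocd had -0.90, adjusted p = 0.086, and with the covariate, where it had -0.85, adjusted p = 0.16.

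Outside the lists, the myocyte-enriched genes Itgb6, Tmem171 and Zfp385b fell in every fit that left out 1 library. Itgb6, an integrin subunit whose dimer activates latent TGF-beta (chromosome 2, 60598292 to 60722603), stood at 2.66, 2.5 and 1.94 CPM with JQ1 and at 22.1, 14.7 and 17.2 CPM with vehicle. Tmem171, a membrane protein gene, stood at 3.35, 3.24 and 3.05 CPM with JQ1 and at 10.6, 10.1 and 10.8 CPM with vehicle. Zfp385b, a zinc finger gene, stood at 3.69, 3.82 and 6.33 CPM with JQ1 and at 12.3, 12.9 and 20.0 CPM with vehicle. The JQ1 libraries were far below the vehicle libraries for each (log2 fold changes -2.92 ± 0.44, -1.70 ± 0.32 and -1.70 ± 0.27). No overlap of the groups was a condition for naming these genes. Cdh22, a cadherin, fell by 1.71 ± 0.39, and AK085891, a transcript named only by its clone, fell by 1.76 ± 0.32. AK085891 passed in all 6 leave-one-out fits and Cdh22 in 4. With the covariate Tmem171 and Zfp385b passed, and Itgb6, Cdh22 and AK085891 did not.

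Of 21 interferon response genes 9 fell and 1 rose, with a median log2 fold change of -0.60. Of all genes tested 4.33% fell and 6.14% rose, and of non-myocyte-enriched genes, the class of 18 of the 21, 2.55% fell. The 1 rise in the list was that of Stat2, a signal transducer of interferon receptors, named after its value was seen (0.82 ± 0.21). Igtp (chromosome 11, 58199556 to 58207592), an immunity-related GTPase against intracellular pathogens, stood at 5.75, 5.81 and 4.02 CPM with JQ1 and at 12.8, 102 and 485 CPM with vehicle. The JQ1 libraries were alike, and the vehicle libraries spread widely, with replicate 3 highest and replicate 1 lowest (-5.26 ± 1.31, adjusted p = 0.032). Irgm1, another such GTPase, stood at 5.41, 6.54 and 7.3 CPM with JQ1 and at 14.6, 42.9 and 217 CPM with vehicle, with the vehicle libraries in the same order (-3.82 ± 0.85, adjusted p = 0.021). Falls were also called for Iigp1 (-4.98 ± 1.13), Irgm2 (-3.95 ± 0.94), the guanylate-binding protein genes Gbp10 (-3.02 ± 0.74) and Gbp6 (-2.90 ± 0.68), Cd274, the gene of PD-L1 (-3.12 ± 0.68), and Nlrc5, the transactivator of MHC class I genes (-2.81 ± 0.59). Of these 8 genes Igtp and Irgm1 belong to the list, and the others were grouped with it after their values were seen. Igtp passed in 1 of the 6 fits that left out 1 library, Irgm2, Gbp6 and Gbp10 in 2, Iigp1 and Irgm1 in 3, and Cd274 and Nlrc5 in 5. Without 1 library the log2 fold change of Igtp ran from -5.80 to -3.47. Igtp and Irgm2 start at the same base in the deposited tables, as do Gbp6 and Gbp10, so how their reads were divided is uncertain.

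Other interferon-inducible genes fell with smaller errors. Tmem173, the gene of the DNA sensing adaptor STING, stood at 1.46, 1.69 and 1.12 CPM with JQ1 and at 6.96, 4.82 and 5.04 CPM with vehicle (-1.97 ± 0.31, adjusted p = 0.0042). Gbp3, a guanylate-binding protein gene, stood at 0.858, 2.06 and 1.79 CPM with JQ1 and at 4.24, 6.4 and 12.9 CPM with vehicle (-2.30 ± 0.45, adjusted p = 0.0096). Ifit1, which binds foreign RNA, stood at 0.773, 1.62 and 1.56 CPM with JQ1 and at 3.06, 4.74 and 10.1 CPM with vehicle (-2.15 ± 0.45, adjusted p = 0.012). The groups were apart in each case, and these 3 genes were called in all 6 fits, Ifit2 (-0.95 ± 0.21) in 5. Most of the list, 18 of 21 genes, was non-myocyte-enriched, while the non-myocyte marker sums were higher in JQ1 replicates 2 and 3 than with vehicle. The list gave 4 to 9 falls over the 6 fits, 4 with each JQ1 library left out in turn, and 4 with the covariate. Macrophage markers summed to 239, 731 and 385 CPM with JQ1 and to 317, 249 and 297 CPM with vehicle, and their part in these values was not tested.

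**Figure D4:**
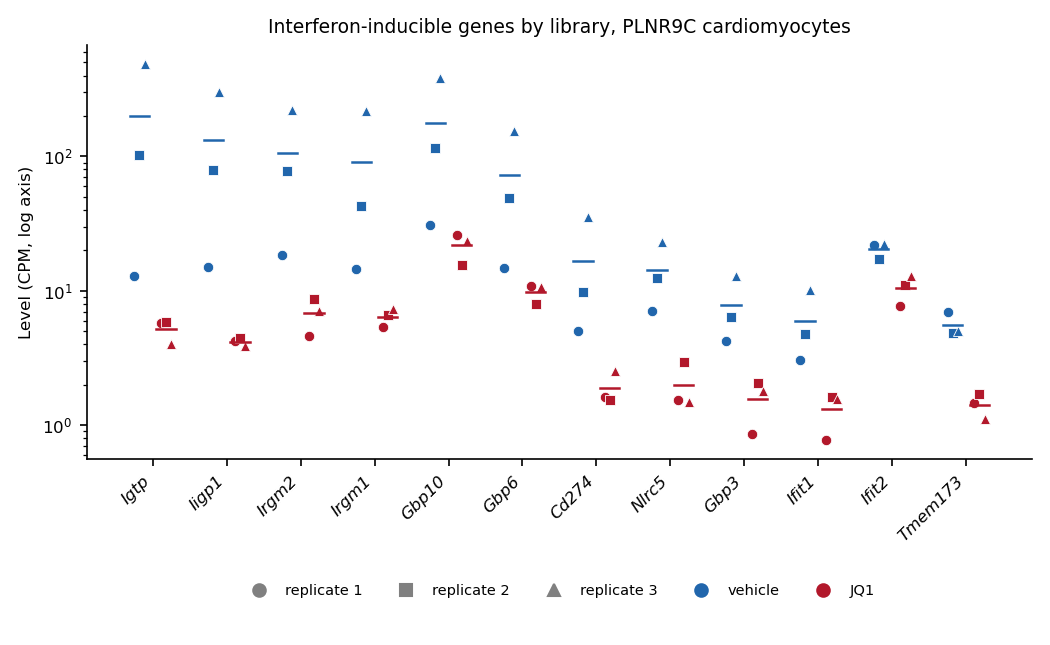
Level of 12 interferon-inducible genes in each PLNR9C cardiomyocyte library (CPM, log axis), with vehicle in blue, JQ1 in red, the replicate as symbol and the mean of 3 as a bar. The JQ1 libraries lie below the vehicle libraries for each gene, and vehicle replicate 3 (triangle) reaches 485 CPM for Igtp.

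The promoters of these genes are shown because the genes fell together and are known targets of interferon regulatory factors and STAT dimers. Of the 9 list members that fell, 7 had a promoter in the RefSeq table of build GRCm38.p6 with a start within 100 bases of the deposited one. The 250 bases before the start of 4 genes follow, 5′ to 3′ on the strand of the gene. Capitals mark each match to GAAA followed after any 2 bases by GAAA (the core of interferon-stimulated response elements) or to TTCNNNGAA (the core of gamma-activated sites), on either strand, with overlapping matches run together.
Igtp, chr11:58199306-58199555, plus strand: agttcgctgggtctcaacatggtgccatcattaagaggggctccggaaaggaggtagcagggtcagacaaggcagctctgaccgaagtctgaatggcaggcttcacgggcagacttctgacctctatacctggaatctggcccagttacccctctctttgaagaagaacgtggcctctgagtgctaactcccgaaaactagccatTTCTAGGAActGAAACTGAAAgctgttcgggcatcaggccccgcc
Ifit1, chr19:34640639-34640888, plus strand: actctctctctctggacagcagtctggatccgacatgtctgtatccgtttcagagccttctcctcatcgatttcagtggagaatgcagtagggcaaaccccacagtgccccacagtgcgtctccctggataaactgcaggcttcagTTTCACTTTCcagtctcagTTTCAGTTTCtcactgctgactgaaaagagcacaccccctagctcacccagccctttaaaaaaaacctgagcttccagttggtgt
Gbp3, chr3:142559794-142560043, plus strand: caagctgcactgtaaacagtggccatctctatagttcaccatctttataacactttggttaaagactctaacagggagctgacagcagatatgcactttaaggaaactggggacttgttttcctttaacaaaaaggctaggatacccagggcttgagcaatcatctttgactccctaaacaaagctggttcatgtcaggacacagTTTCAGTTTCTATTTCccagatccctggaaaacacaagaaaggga
Ifit2, chr19:34550444-34550693, plus strand: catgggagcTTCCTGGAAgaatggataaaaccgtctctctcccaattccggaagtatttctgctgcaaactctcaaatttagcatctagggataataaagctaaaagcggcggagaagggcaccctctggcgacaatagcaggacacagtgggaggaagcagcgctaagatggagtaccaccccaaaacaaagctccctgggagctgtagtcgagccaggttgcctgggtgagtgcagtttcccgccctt
The paired GAAA was found in 6 of the 7 promoters and TTCNNNGAA in 2 of the 7. Among all 32851 promoters of the table the shares were 2.98% and 7.02%. Of the 4 shown, Ifit2 held TTCNNNGAA alone. The list was made of interferon-inducible genes, so these matches describe its members.

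Immediate early genes rose in 9 of 24 cases, with none falling and a median of 0.77, and 20 of the 24 were non-myocyte-enriched. Of all genes tested 6.14% rose, and of non-myocyte-enriched genes 12.4% rose. Jund, an AP-1 subunit (chromosome 8, 70697739 to 70700616), stood at 171, 169 and 159 CPM with JQ1 and at 81.3, 82.4 and 97.6 CPM with vehicle, and its 3 JQ1 libraries were close to one another (0.93 ± 0.11, adjusted p = 0.0011). Ier2, an early serum-response gene, stood at 57.4, 79.2 and 51.3 CPM with JQ1 and at 29.6, 27.1 and 22.2 CPM with vehicle (1.25 ± 0.21, adjusted p = 0.0050). Dusp1, a phosphatase of MAP kinases, stood at 178, 386 and 243 CPM with JQ1 and at 104, 97.7 and 97.4 CPM with vehicle (1.43 ± 0.26, adjusted p = 0.0078). Klf2, a flow-responsive factor of endothelium, stood at 48.2, 147 and 82.3 CPM with JQ1 and at 26.4, 30.3 and 24.3 CPM with vehicle (1.77 ± 0.34, adjusted p = 0.011). Jund, Ier2, Dusp1 and Klf2 passed in all 6 fits that left out 1 library. The JQ1 libraries of Dusp1 and Klf2 followed the order of the non-myocyte marker sums, and those of Jund did not. The count of the list was 4 to 13 over the 6 fits, lowest without JQ1 replicate 2, and 2 with the covariate, under which Jund (0.93, adjusted p = 0.0035) and Ier2 (1.03, adjusted p = 0.041) passed.

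Growth and cell cycle genes moved in both directions, where 6.14% of all genes rose and 4.33% fell. In the Myc network and ribosome biogenesis list 4 of 19 rose and 1 fell, at a median of 0.06. Myc itself stood at 5.84, 12 and 15 CPM with JQ1 and at 5.6, 7.4 and 14.3 CPM with vehicle and did not pass (0.27 ± 0.37, adjusted p = 0.68). The rises were of Nop56, a ribosomal RNA methylation factor (0.72 ± 0.13), the Myc antagonists Mxd1 (0.88 ± 0.16) and Mxi1 (0.48 ± 0.12), and Mycn (1.69 ± 0.40). Of 27 cell cycle genes 3 rose and 3 fell. The replication clamp gene Pcna rose by 0.79 ± 0.12 and the cyclin gene Ccnd3 by 0.65 ± 0.11, while Mcm2, a subunit of the replicative helicase, fell by 1.09 ± 0.22 and Ccnd2, another D cyclin, fell by 0.54 ± 0.12. These 4 genes were called in all 6 fits that left out 1 library, and none had overlapping groups. Hlf, a clock output factor, rose by 1.25 ± 0.26 and the clock repressor gene Cry1 by 0.81 ± 0.19, 2 of 18 circadian genes. Nop56, Mxd1 and Hlf passed in all 6 leave-one-out fits, Mycn and Cry1 in 4 and Mxi1 in 3.

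Stress response lists gave no more than 2 rises each, where 6.14% of all genes rose. Of 21 integrated stress response genes Slc3a2, an amino acid transporter subunit, rose by 0.40 ± 0.12 and Sesn2, an inhibitor of mTORC1, by 0.74 ± 0.16. Of 18 unfolded protein response genes the sensor gene Ern1 alone rose, to 23.9, 29.7 and 24.7 CPM from 14.9, 13.7 and 13.3 CPM (0.90 ± 0.15, adjusted p = 0.0049). Sesn2 and the growth arrest gene Gadd45a (0.75 ± 0.18) rose among 14 p53 targets. No heat shock gene of 17 and no glycolysis gene of 22 passed. Among 17 mitochondrial regulators Nrf1 (0.84 ± 0.17) and the polymerase gene Polg (0.38 ± 0.10) rose, and Gabpa, a factor for nuclear mitochondrial genes, fell by 0.54 ± 0.12. Sesn2, Ern1 and Nrf1 passed in all 6 fits that left out 1 library, Gabpa in 4 and Slc3a2, Gadd45a and Polg in 2.

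Genes of connective tissue were highest in the JQ1 library with the most non-myocyte RNA: the 40 extracellular matrix genes tested summed to 4421, 12835 and 7719.9 CPM with JQ1 and 5704, 3877 and 5525 CPM with vehicle. Of these 40 genes 39 had a positive log2 fold change, with a median of 0.80. Of all genes tested 6.14% rose, and in this list 1 passed, the collagen cross-linking enzyme gene Loxl2. It stood at 26.6, 74 and 50.7 CPM with JQ1 and at 27, 20.0 and 26.3 CPM with vehicle, with overlap (1.05 ± 0.30, adjusted p = 0.047). Without JQ1 replicate 2 the median was 0.29 and none passed, and with the covariate the median was -0.08 and none passed. Col1a1, a fibrillar collagen gene, stood at 236, 751 and 406 CPM with JQ1 and at 306, 183 and 272 CPM with vehicle, overlapping (0.87 ± 0.35, adjusted p = 0.13). Col3a1 had 0.74 ± 0.41, adjusted p = 0.26. Loxl2 passed in 1 of the 6 leave-one-out fits. Loxl2 and Col1a1 followed the order of the marker sums in the JQ1 libraries. Col1a1 and Col3a1 are themselves among the markers, so the agreement of matrix genes with the sums or the covariate is partly built in.

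Endothelial markers gave 5 rises among 12, fibroblast markers 3 among 12 and epicardial markers 3 among 6, where 12.4% of non-myocyte-enriched genes rose. Esam, an endothelial adhesion gene, stood at 80.9, 174 and 92.8 CPM with JQ1 and at 42, 47.6 and 47.5 CPM with vehicle (1.34 ± 0.30, adjusted p = 0.020). Gsn, the actin-severing protein gelsolin, stood at 818, 2261 and 1451 CPM with JQ1 and at 599, 553 and 573 CPM with vehicle (1.39 ± 0.28, adjusted p = 0.012). Npr1, the receptor of natriuretic peptides, stood at 34.4, 81.8 and 49.6 CPM with JQ1 and at 20.7, 18.7 and 15.9 CPM with vehicle (1.59 ± 0.27, adjusted p = 0.0063). In all 3, each JQ1 library was above each vehicle library. The endothelial marker sum, too, was higher in each JQ1 library, at 829, 1619 and 1048 CPM against 609.7, 642.5 and 581.7 CPM, and its part in the values of single genes was not tested. Over the 6 leave-one-out fits the endothelial list gave 0 to 6 rises, the fibroblast list 1 to 9 and the epicardial list 0 to 5, with 0, 1 and 1 without JQ1 replicate 2. Gsn and Npr1 passed in all 6 fits that left out 1 library and Esam and Cd14 in 3. With the covariate Gsn and Npr1 passed, and Esam and Cd14 did not. Gsn and Esam are themselves among the markers that make up the covariate. Cd14, a monocyte receptor, stood at 17.7, 88.7 and 26.7 CPM with JQ1 and at 11.5, 8.05 and 10.2 CPM with vehicle (2.17 ± 0.50, adjusted p = 0.022), and had 1.17, adjusted p = 0.032 without replicate 2.

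TGF-beta signalling genes gave 2 rises among 24, with none falling. Of all genes 6.14% rose, and of non-myocyte-enriched genes, the class of 16 of the 24, 12.4% rose. Tgfb1, a ligand, rose by 1.06 ± 0.27 and was highest in JQ1 replicate 2, with 30.2, 67.1 and 37.2 CPM against 26.3, 16.5 and 22 CPM. Smad7, the inhibitory SMAD, rose by 0.90 ± 0.23. Tgfb1 passed in 3 of the 6 leave-one-out fits and Smad7 in 2. Both missed the threshold without JQ1 replicate 2 (Tgfb1 0.64, adjusted p = 0.080, Smad7 0.70, adjusted p = 0.12). Tgfb2, another ligand, stood at 57.4, 56.9 and 91.1 CPM with JQ1 and at 94.6, 93.4 and 196 CPM with vehicle. Its groups did not overlap, but it missed the threshold (-0.90 ± 0.27, adjusted p = 0.056). Ctgf, a matricellular target, overlapped (-0.20 ± 0.44, adjusted p = 0.81).

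A few immune genes stood apart from the other markers of their lists. Cd3e, a chain of the T cell receptor complex (chromosome 9, 44998743 to 45009590), stood at 46.8, 8.38 and 22.9 CPM with JQ1 and at 0.255, 1.08 and 4.0 CPM with vehicle (3.89 ± 0.78, adjusted p = 0.013). Its JQ1 libraries lay in the reverse order of the non-myocyte marker sums. In reads this was 545, 114 and 308 against 3, 15 and 46. The partner chains Cd3d and Cd3g had at most 2 reads in any of the 6 libraries, and the B cell gene Ms4a1 had 0. Cx3cr1, a chemokine receptor of macrophages, fell to 0.429, 0.368 and 0.447 CPM from 5.18, 4.89 and 1.48 CPM (-3.19 ± 0.62, adjusted p = 0.0092), while the other 9 macrophage markers tested had positive log2 fold changes and none of them passed. Cd3e and Cx3cr1 passed in all 6 fits that left out 1 library.

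The effect of JQ1 in PLNR9C was next set against that in wild type cardiomyocytes, which use other libraries. In wild type 513 of 14142 genes were called (3.63%), 240 that rose (1.7%) and 273 that fell (1.93%), and the total was 109 to 276 when any 1 wild type library was left out. Of the genes that rose in PLNR9C, 178 rose in wild type too, 20.5% of the PLNR9C list and 74.2% of the wild type list. Of those that fell, 137 fell in both, 22.4% and 50.2% of the lists, and no gene was called in opposite directions. The test of the difference itself called 0 genes in edgeR (0%), with 954 genes at an unadjusted p under 0.05, and 6 genes in DESeq2. The 6, named after their values were seen, were Ache, Gm14492, Mum1l1, Olfml2b, Rasgrp2 and Slc7a5.

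Hexim1 rose by 1.58 ± 0.15 in wild type, Zswim6 by 2.33 ± 0.13 and Brd2 by 0.81 ± 0.11, each close to its value in PLNR9C. Acta1 had -1.57 ± 0.22 in wild type. Ier2 had 0.22 ± 0.21 in wild type and 1.25 ± 0.21 in PLNR9C (adjusted p of the difference 0.73), and Dusp1 had 0.15 ± 0.25 and 1.43 ± 0.26 (adjusted p of the difference 0.73). Nppa had 0.92 ± 0.40 in wild type and -0.39 ± 0.39 in PLNR9C (adjusted p of the difference 0.73). The endothelial markers had a median of -0.07 in wild type and 0.90 in PLNR9C, and the interferon list -0.74 and -0.60.

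**Figure D5:**
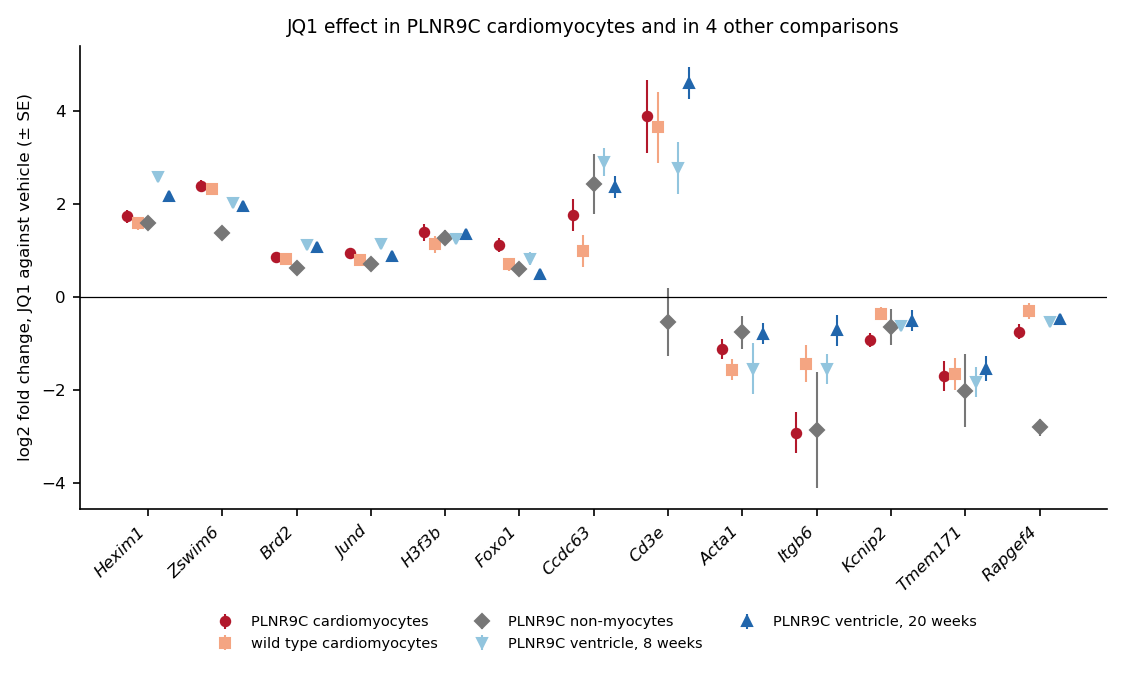
Log2 fold change of JQ1 against vehicle (± SE) for 13 genes in PLNR9C cardiomyocytes, wild type cardiomyocytes, PLNR9C non-myocytes, and PLNR9C ventricle at 8 and 20 weeks, 3 libraries a group. Hexim1 lies between 1.58 and 2.58 in all 5 comparisons, while Cd3e is at -0.54 in non-myocytes and between 2.77 and 4.61 in the other 4.

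In PLNR9C non-myocytes of the same age 4620 of 15823 genes were called for JQ1 (29.2%), 1531 that rose (9.68%) and 3089 that fell (19.5%). The difference between the fractions, tested in 1 fit of 24 libraries, was called for 384 genes (2.43%), 283 with the higher log2 fold change in cardiomyocytes (1.79%) and 101 with the lower (0.638%). That total was 159 to 1804 when any 1 PLNR9C library was left out, the highest without JQ1 cardiomyocyte replicate 1. Cardiomyocyte markers in the non-myocyte libraries summed to 4625, 1282 and 1555 CPM with JQ1 and to 2098, 2790 and 2377 CPM with vehicle (unscaled library sizes), uneven among the JQ1 libraries, and their part in the values of myocyte-enriched genes there was not tested. Among myocyte-enriched genes, Rapgef4, a cAMP-activated exchange factor, had -0.75 ± 0.17 in cardiomyocytes and -2.81 ± 0.18 in non-myocytes, and Hist1h2bc had 0.69 ± 0.12 and 2.49 ± 0.22. Zswim6 had 2.4 ± 0.12 in cardiomyocytes and 1.38 ± 0.13 in non-myocytes (difference 1.05 ± 0.19, adjusted p = 0.0039). Asph fell in cardiomyocytes and rose in non-myocytes (0.42 ± 0.11, with a difference of -0.83 ± 0.16 and an adjusted p of 0.0056). Hexim1 rose by 1.59 ± 0.15 in non-myocytes (difference 0.18 ± 0.21, adjusted p = 0.67). The 13 mitochondrially encoded genes had a median of 1.67 there against 0.45 in cardiomyocytes.

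The PLNR9C ventricle shares no library with the cardiomyocytes. JQ1 changed 5097 of 15971 genes there at 20 weeks (31.9%) and 5133 of 15501 at 8 weeks (33.1%). Of the 868 genes that rose in cardiomyocytes 638 rose in the 20-week ventricle, 73.5% of the first list and 25.9% of the second, and 8 fell. Of all genes tested in both, 17.5% rose in that ventricle and 15.8% fell. Of the 612 that fell 403 fell there, 65.8% and 18% of the lists, and 3 rose. For myocyte-enriched genes the shares of the cardiomyocyte list were 84.5% of rises and 59.2% of falls. At 8 weeks 618 of the rises (71.2%) and 453 of the 607 falls tested there (74.6%) were found again, 26.2% and 18.6% of the 8-week lists, beside 16.7% and 17.3% of all genes. Among all myocyte-enriched genes tested in both, 18.8% rose and 10.5% fell in the 20-week ventricle. Acta1 fell there as well (-0.79, adjusted p = 0.022), as did Tmem173 (-1.73) and Tmem171 (-1.55), and Pdk4 rose (1.51, adjusted p = 0.033).

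Some lists had other counts in the ventricle. At 20 weeks 51 of 55 oxidative phosphorylation genes and 24 of 27 fatty acid genes rose, with medians of 0.35 and 0.46. At 8 weeks 8 of 55 and 12 of 27 rose, with medians of 0.11 and 0.19. Cardiomyocytes had 0 of 55 and 1 of 27, with medians of -0.11 and 0.03. Cells and tissue were fitted in separate tables, so no test of the difference was run. Without JQ1 replicate 2 the cardiomyocyte medians were 0.05 and 0.19, with 0 and 2 genes rising. Extracellular matrix genes gave 8 falls and 1 rise of 40 in the 20-week ventricle and 3 falls and 2 rises at 8 weeks, against no fall and 1 rise in cardiomyocytes. The histone genes gave 12 rises of 16 in the ventricle at either age and 6 in cardiomyocytes, with no fall.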

How the data were processed

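The values tested were raw read counts per gene and library, as the authors deposited them per the file headers. STAR (2.4.1b) and the builds GRCm38 and mm10 appear in the submitters' processing notes. The sources used here do not tell how reads were counted, on which annotation or whether by strand, so overlapping genes cannot be told apart. The authors also deposited a length-scaled value per gene, read here as RPKM, which entered no test.

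Counts of 12 cardiomyocyte libraries (4 groups of 3) were fitted in edgeR 4.0.16 (R 4.3.3, limma 3.58.1) with filterByExpr by group, TMM scaling, glmQLFit (robust) and glmQLFTest. P-values were Benjamini-Hochberg adjusted over all genes tested, with a threshold of 0.05. CPM used TMM-scaled library sizes, and an SE is the size of the log2 fold change divided by the square root of F. Differences between fractions came from 1 fit of 24 libraries, and ventricle values from 1 fit per age. Scripts were tested on simulated data. Alternatives were relative log expression size factors, other filters, a replicate block, a marker covariate, DESeq2 1.42.0, the PLNR9C libraries alone, and leaving out each library. The counts of the lists without JQ1 replicate 2 and with the covariate were added after seeing the data.

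Members and the 41 gene lists were chosen with earlier results of these data known. Named genes are the 8 largest rises and 8 largest falls among myocyte-enriched genes and the 5 and 5 largest among the others. These had to pass, to average 10 CPM or more in the group with the higher level, to show no overlap of libraries and to be no predicted gene. Added were 4 and 4 genes for the difference between fractions, up to 4 called members of each list with the smallest p, and a preset group of cardiac, BET and matrix genes. Some genes that these rules name are not reported here.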

Additional observations from a re-analysis of the deposited data

Results flagged for a closer look

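The effect of JQ1 differed between PLNR9C cardiomyocytes and PLNR9C non-myocytes for 384 genes, by edgeR's test of the difference itself. The largest differences among myocyte-enriched genes, within the limits for named genes, are given as the log2 effect in cardiomyocytes minus that in non-myocytes. Dhx35, an RNA helicase gene, had 2.34, Acsf3, a mitochondrial acyl-CoA synthetase gene, had 2.10, Rapgef4 had 2.10 and Fastkd2, a mitochondrial RNA-binding protein gene, had 2.05. In the other direction mt-tRNA-His had -2.23, the linker histone gene Hist1h1c had -2.0, the Ras-related gene Rras2 had -1.90 and Hist1h2bc had -1.76. In cardiomyocytes themselves Rapgef4 (-0.75) and Hist1h2bc (0.69) passed. Dhx35 (-0.36), Acsf3 (-0.30), Fastkd2 (0.04), mt-tRNA-His (0.15), Hist1h1c (0.38) and Rras2 (-0.64) did not pass there. The uneven cardiomyocyte markers of the non-myocyte libraries, given above, bear on these differences too, and their part was not tested.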

How the results depend on the processing

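Of 121 named genes 100 passed, and 44 were called in each of the 6 fits that left out 1 PLNR9C cardiomyocyte library. All 121 kept direction and call with relative log expression size factors, and 119 with DESeq2. Without a filter on low counts 28 lost the call, in the 6 PLNR9C libraries alone 93, and with the marker covariate 63. Leaving out 1 PLNR9C cardiomyocyte library gave 643 to 2513 calls, with 377 to 1685 rises and 263 to 828 falls. In these fits the rises and falls were 43 to 85 and 118 to 629 for myocyte-enriched genes, and 255 to 1446 and 58 to 102 for non-myocyte-enriched genes. With the covariate there were 393 calls, 211 rises and 182 falls, with 49 falls of myocyte-enriched and 109 rises of non-myocyte-enriched genes. The 6 PLNR9C libraries alone gave 22 calls, 14 rises and 8 falls: 1 rise and 7 falls of myocyte-enriched genes, and 12 rises and 1 fall of non-myocyte-enriched genes. Counting only myocyte-enriched genes left 452 calls. A mean of at least 10 CPM gave 434 rises and 58 falls of non-myocyte-enriched genes, and 273 calls in wild type. Wild type calls were 948 with the covariate, 872 with DESeq2, and 109 to 276 without any 1 wild type library. DESeq2 called 6 genes for the difference between genotypes. The difference between fractions had 75 calls in the 12 PLNR9C fraction libraries, and 159 to 1804 without any 1 of them. The cause of these shifts was not tested, other than that fewer genes or libraries entered some fits.

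Same-numbered JQ1 and vehicle libraries were not treated as pairs. Their deviations correlated at -0.072, -0.20 and 0.298, and those of differently numbered libraries at -0.214 to 0.296. With 3 libraries a group these values cannot decide whether the libraries were paired. With the replicate block 1287 genes were called, of which 1193 were among the 1480. With it the mitochondrially encoded list gave 2 rises and the interferon list 6 falls, and without a filter on low counts 2 and 5.

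Log2 fold changes that changed sign belonged to genes that did not pass. With the covariate Actc1 had 0.090, Atp2a2 0.21, Col1a1 -0.017, Col3a1 -0.20, mt-tRNA-His -0.20, Myc -0.097 and Pln 0.0062. With 1 library left out, the ranges were -0.19 to 0.057 for Actc1, -0.19 to 0.11 for Atp2a2, -0.37 to 0.20 for Ctgf, -0.10 to 0.26 for Fastkd2, -0.051 to 0.31 for mt-tRNA-His, -0.0040 to 0.75 for Myc and -0.53 to 0.084 for Nppb.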
